A study of Homo sapiens with 6 samples.

Results

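ATP-binding cassette (ABC) transporter genes were examined in HepG2, an established line from a human liver tumour with hepatocyte features, labelled HCC (hepatocellular carcinoma). Members were the rows whose gene symbol names an ABC gene of subfamilies A to G by letter and number, which gave 46 of the 26475 genes in the table. ABC genes that go by other symbols, such as TAP1, TAP2 and CFTR, are not among the 46 and are given apart. Total RNA was sequenced, with 3 libraries of TAF2-expressing HepG2 and 3 of HepG2 that express eGFP, a fluorescent reporter. TAF2 belongs to TFIID, the complex that recognises core promoters and recruits RNA polymerase II. The labels do not give the promoter that drives TAF2 or eGFP, clonality, or whether each library had its own culture, so the spread behind every p-value is that between libraries and could be technical.

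ABC proteins share nucleotide-binding domains that hydrolyse ATP, and most use that energy to move a substrate across a membrane. In hepatocytes they pump bile salts, phospholipid, sterols, bilirubin conjugates and drugs into the bile canaliculus, load cholesterol onto apolipoproteins at the blood side, and carry fatty acids into peroxisomes and heme or iron-sulfur precursors across mitochondrial membranes. Subfamilies E and F have the nucleotide-binding domains but no membrane part, and act at the ribosome.

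Total counts ran from 24631251 to 28024004 in the TAF2 libraries and from 22276308 to 27137862 in the eGFP libraries. TAF2 itself had 50.1, 48.3 and 47.4 CPM (counts scaled to the same library size in all samples) in the TAF2 libraries, against 35.8, 40.4 and 37.5 CPM in the eGFP libraries, without overlap (log2 fold change 0.36, SE 0.046, edgeR adjusted p = 1.44e-08). Hepatocyte markers were present, with all 8 of 8 above 1 CPM, and their summed level was 38591 to 40407 CPM in TAF2 and 48150 to 49636 CPM in eGFP libraries. Of the 4 blood cell markers PTPRC, CD3E and HBB had no count (summed level 34.7 to 37.0 CPM in TAF2 and 45.5 to 49.0 CPM in eGFP libraries, all of it CD68), and the 3 endothelial markers together stayed between 0.549 and 0.714 CPM in TAF2 and between 0.295 and 1.08 CPM in eGFP libraries. The fibroblast and stellate list summed to 66.1 to 70.6 CPM in TAF2 and 55.0 to 58.6 CPM in eGFP libraries, with 3 of 4 above 1 CPM. The cholangiocyte list summed to 482 to 487 CPM in TAF2 and 441 to 446 CPM in eGFP libraries, with 2 of 4 above 1 CPM and CFTR at 0. Of these, KRT19 averaged 264 CPM in TAF2 and 212 CPM in eGFP libraries, and SOX9 221 and 231 CPM. The part of these marker shifts in the changes below was not tested, and in bulk RNA fewer cells with a transcript and less of it per cell cannot be told apart.

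Promoter stretches are shown for the genes on which the results turn: ABCA1, the exporter that hands cholesterol and phospholipid to apolipoprotein A-I, ABCB1, the multidrug exporter P-glycoprotein, and the sterol exporters ABCG5 and ABCG8, which lie head to head and form a heterodimer. They come from RefSeq, on GRCh38.p14. The ABCA1 stretch is the 250 bases before its start (chr9:104928156-104928405, minus strand), the ABCB1 stretch the 250 bases before the downstream of its 2 listed starts (chr7:87600885-87601134, minus strand), and the third is the whole of the 131 bases between the listed starts of ABCG5 and ABCG8 (chr2:43838840-43838970, plus strand, read toward ABCG8). A longer form of ABCG5 in the RefSeq gene table, which ends at 43839231, runs across this last stretch. Capitals mark matches, on either strand, to TATAAA, to CCAAT, to GGGCGG, to CACGTG and to GGTNA followed by any 5 bases and GGTCA, the last a relaxed form of the direct repeat bound by the oxysterol receptors LXR with their partner RXR and chosen with the known ABCA1 element in view.
ABCA1: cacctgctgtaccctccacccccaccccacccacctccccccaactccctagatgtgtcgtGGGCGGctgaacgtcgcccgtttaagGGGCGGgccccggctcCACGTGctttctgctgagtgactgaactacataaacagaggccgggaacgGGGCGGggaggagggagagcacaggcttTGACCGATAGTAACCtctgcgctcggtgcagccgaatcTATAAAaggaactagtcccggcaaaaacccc
ABCB1: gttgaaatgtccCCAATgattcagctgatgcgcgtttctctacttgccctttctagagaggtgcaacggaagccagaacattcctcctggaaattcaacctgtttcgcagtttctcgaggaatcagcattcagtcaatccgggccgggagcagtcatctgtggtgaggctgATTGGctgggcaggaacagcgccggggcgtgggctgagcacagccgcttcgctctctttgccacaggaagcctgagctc
ABCG5 and ABCG8: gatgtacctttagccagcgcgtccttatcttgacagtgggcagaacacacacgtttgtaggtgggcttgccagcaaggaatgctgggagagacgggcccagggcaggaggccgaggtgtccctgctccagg

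In the ABCA1 stretch the relaxed repeat began 69 bases and TATAAA 31 bases before the start, with GGGCGG at 189, 163 and 97 bases and CACGTG at 147. ABCB1 had CCAAT in reverse at 79 bases and forward at 238, and the stretch between ABCG5 and ABCG8 held none of these letters. Over all 35116 listed promoters of 250 bases, 10.7% held TATAAA, 32% CCAAT, 42.6% GGGCGG, 6.34% CACGTG and 0.216% the relaxed repeat. For 25 of the tested ABC genes 37 promoters were listed, of which 4 held TATAAA (10.8%), 6 CCAAT (16.2%), 21 GGGCGG (56.8%), 7 CACGTG (18.9%) and 1, that of ABCA1, the relaxed repeat (2.7%). The 7 promoters with CACGTG belonged to 6 genes and the 21 with GGGCGG to 18, so 1 site can count more than once where starts lie close. All listed promoters include those of genes that were not tested. These are matches of letters, and nothing about binding was measured.

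Of the 46 members 31 had enough counts to be tested, and all 31 had a count in every library. Among these, 13 were lower and 6 higher with TAF2 at an adjusted p under 0.05 by edgeR's quasi-likelihood test, that is 61.3%, against 43.0% of all 12902 tested genes. In the lower direction the background was 22.4% and in the higher direction 20.6%. Of the 28 tested members with a mean of at least 5 CPM 17 were called (60.7%), against 47.3% of all genes at that level. Of the 31 tested members 11 were called with a change of 0.25 or more on the log2 scale in either direction, against 19.6% of all tested genes. The median log2 fold change was -0.08 over the 31 members and -0.0027 over all tested genes. Changes ran from -1.25 to 0.64, and 1 member, the low-level ABCA3, passed a test against a change of 1.5-fold (adjusted p = 0.0201), which 2.89% of all genes passed. The TAF2 and eGFP libraries did not overlap for 22 members, 15 with TAF2 below and 7 above, against a background of 50.6% of all genes, 26.1% with TAF2 below and 24.5% above.

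**Figure D1:**
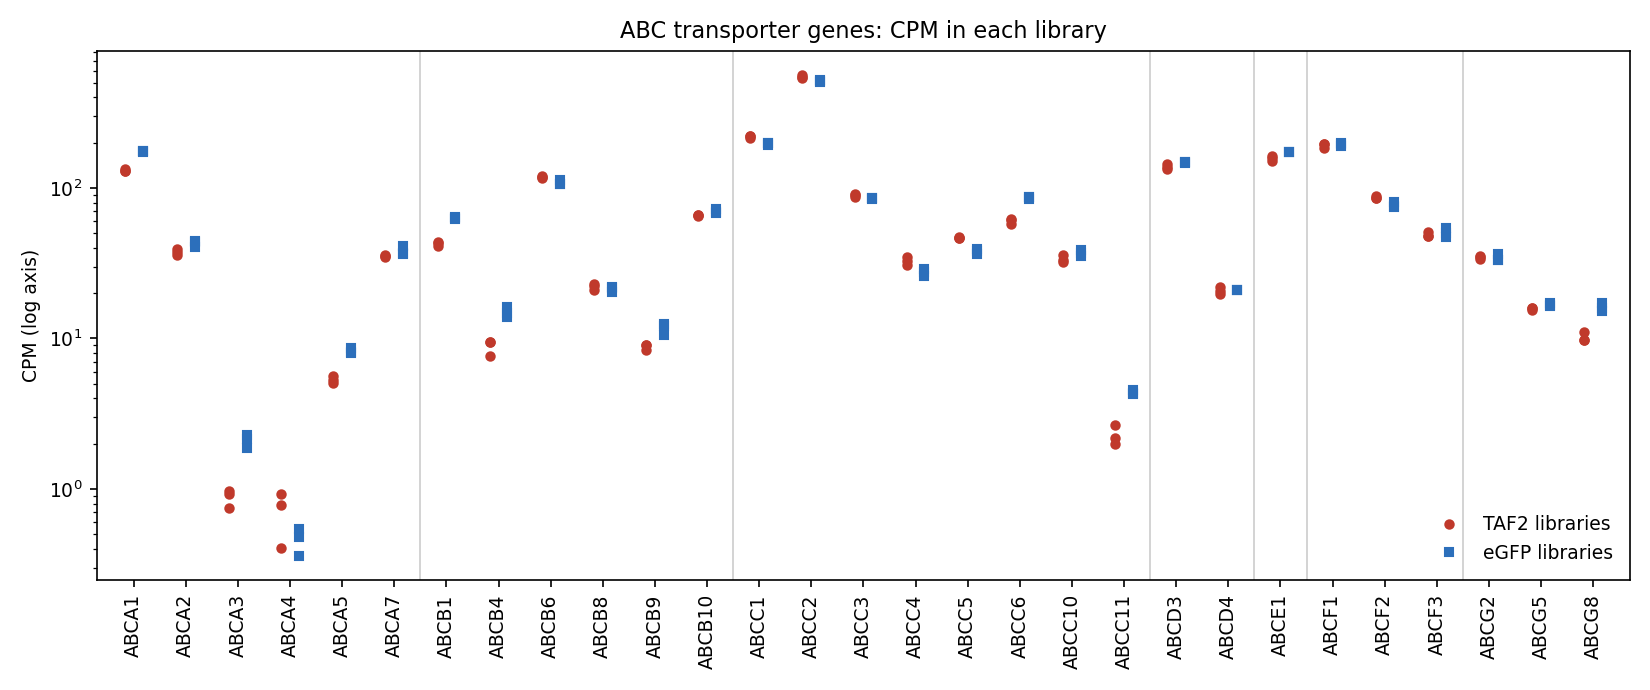
CPM on a log axis of 29 tested ABC genes, in order of subfamily, with 1 point per library (TAF2 circles left, eGFP squares right). ABCC2 lay highest, between 540.4 and 565 CPM in TAF2 and between 506 and 522 CPM in eGFP libraries, while ABCA4 stayed below 1 CPM in all 6.

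Per length, ABCC2 was the highest ABC gene in both groups. This canalicular exporter of bilirubin glucuronides and other conjugates had 94.8 ± 2.23 CPM per kilobase of its longest matched transcript in TAF2 and 88.4 ± 1.34 in eGFP libraries (SD, n = 3 each). The translation factor ABCF1 came next with 55.2 ± 1.66 and 56.0 ± 0.972. ABCE1 (40.1 ± 1.54 and 44.3 ± 0.254), ABCD3 (39.1 ± 1.41 and 41.8 ± 0.0631) and ABCB6 (38.9 ± 0.446 and 35.8 ± 1.33) followed, and in the TAF2 libraries these 3 differed by less than the SD of ABCE1. At the other end ABCA3 had 0.133 ± 0.0178 and 0.319 ± 0.0311 CPM per kilobase, and ABCA4 0.0966 ± 0.0370 and 0.0629 ± 0.0125. Lengths came from GENCODE release 29 and the counted transcript mix is unknown, so this order is approximate.

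The canalicular genes moved in both directions. ABCC2 had 565, 546 and 540.4 CPM in the TAF2 libraries, against 506, 522 and 512 CPM in the eGFP libraries. The groups did not overlap, but the rise was small, at 0.10 on the log2 scale (SE 0.022, edgeR adjusted p = 0.00022). ABCB1 (chr7:87503017-87713295), whose promoter stretch is given above, had 41.3, 43.9 and 42.9 CPM in TAF2 libraries, against 64.4, 62.1 and 63.6 CPM in eGFP libraries. Every TAF2 library lay well below every eGFP library, and the log2 fold change was -0.57 (SE 0.040, adjusted p = 1.72e-15), a level 0.674 times that in eGFP cells. ABCB4, which flips phosphatidylcholine into bile, had 7.70, 9.54 and 9.42 CPM in TAF2 libraries, against 13.9, 14.8 and 16.2 CPM in eGFP libraries, without overlap. Its log2 fold change was -0.75 (SE 0.087, adjusted p = 1.58e-09). ABCB11, the bile salt export pump, had no count in any library, where 3 counts correspond to 0.107 to 0.135 CPM, so any expression was under the level that this depth can show.

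ABCB1 and ABCB4 lie 27.0 kb apart and are close relatives, and their deposited counts were fractions in 5 of 6 libraries, as in TAF2 replicate 1 with 1019.70 and 190.30. Reads shared between them could therefore have been divided unevenly. With both rows summed, an alternative chosen after seeing the data, the log2 fold change was -0.60 (SE 0.038, adjusted p = 5.34e-17). The ratio of ABCB4 to ABCB1 counts overlapped between the groups, at 0.208 ± 0.0187 in TAF2 and 0.237 ± 0.0195 in eGFP libraries (SD, n = 3 each; two-sided exact permutation p = 0.3, adjusted p = 0.3 over 6 ratios, where the smallest p possible is 0.1).

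ABCG5 and ABCG8 pump cholesterol and plant sterols as a heterodimer, and of the pair, divided by the 131 bases shown above, ABCG8 was called and ABCG5 was not. ABCG8 had 11.1, 9.73 and 9.74 CPM in TAF2 libraries, against 17.3, 16.0 and 15.2 CPM in eGFP libraries. The groups did not overlap, and ABCG8 fell by 0.67 on the log2 scale (SE 0.080, edgeR adjusted p = 2.80e-09). ABCG5 had 15.9, 15.8 and 15.5 CPM in TAF2 libraries, against 17.1, 16.8 and 16.4 CPM in eGFP libraries. These groups did not overlap either, but the difference was small and did not pass the test (log2 fold change -0.10, 95% interval -0.23 to 0.04, adjusted p = 0.259). The ratio of ABCG8 to ABCG5 counts was 0.697, 0.616 and 0.631 in TAF2 libraries, against 1.01, 0.954 and 0.922 in eGFP libraries. All 3 TAF2 ratios were below all 3 eGFP ratios, and the two-sided exact permutation p of 0.1 (adjusted p = 0.15 over 6 ratios) is the smallest that 3 libraries against 3 allow. The 6 pairs were picked after their values were seen.

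**Figure D2:**
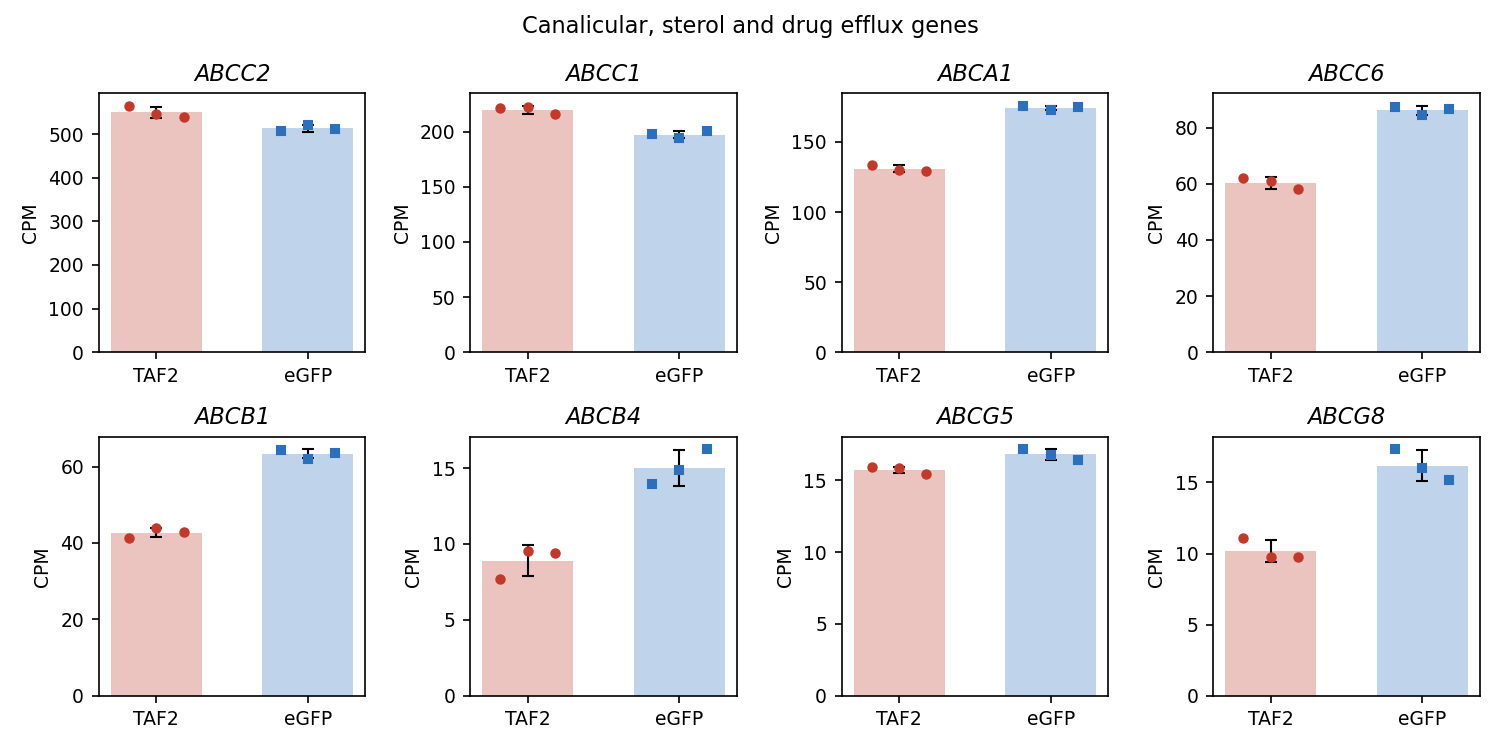
CPM of 8 efflux genes in the TAF2 (left) and eGFP (right) libraries, with points for libraries and bars for the mean ± SD (n = 3 each), each axis starting at 0. ABCC2 and ABCC1 were higher with TAF2, ABCA1, ABCC6, ABCB1, ABCB4 and ABCG8 were lower, and ABCG5 differed by little.

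ABCA1 (chr9:104781006-104928155) was the most abundant gene of its subfamily. It had 134, 129.8 and 129 CPM in TAF2 libraries, against 176, 173 and 175 CPM in eGFP libraries. The TAF2 libraries were all lower, by 0.41 on the log2 scale (SE 0.026, edgeR adjusted p = 4.89e-17), a level 0.750 times that in eGFP cells. ABCG1, which passes cholesterol on to high-density lipoprotein, had 1 count in 1 TAF2 library and none elsewhere. ABCG2, the breast cancer resistance protein that exports drugs and urate, had 34.7, 35.5 and 33.7 CPM in TAF2 libraries, against 36.6, 33.3 and 33.1 CPM in eGFP libraries. These overlapped, and the interval of the log2 fold change ran from -0.09 to 0.11. ABCG2 lies on chromosome 4, where the 19 other tested genes of at least 5 CPM within 5 Mb had a median log2 fold change of -0.19.

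The other A genes, which move lipids within cells or at specialised membranes, were lower or not called. ABCA2, an endosomal and lysosomal lipid transporter, had 37.8, 39.2 and 35.8 CPM in TAF2 libraries, against 44.1, 40.6 and 43.7 CPM in eGFP libraries, a fall of 0.19 on the log2 scale (adjusted p = 0.000856). ABCA5 had 5.03, 5.30 and 5.60 CPM in TAF2 libraries, against 8.04, 8.59 and 8.18 CPM in eGFP libraries, and fell by 0.63 (SE 0.10, adjusted p = 2.42e-06). Both sets of TAF2 libraries lay below all eGFP libraries. ABCA3, known from lung surfactant secretion, had 0.932, 0.746 and 0.964 CPM in TAF2 libraries, against 2.29, 2.16 and 1.88 CPM in eGFP libraries, the largest fold change of any tested member at -1.25 (SE 0.23, adjusted p = 1.26e-05). ABCA7, a phospholipid transporter, averaged 35.3 ± 0.657 CPM in TAF2 and 38.3 ± 2.74 CPM in eGFP libraries (SD, n = 3 each) and just missed the threshold (adjusted p = 0.0513). Without eGFP replicate 1 or eGFP replicate 2 it was past it (adjusted p = 0.0317 and 0.0383), and over all alternatives but the test against 1.5-fold the adjusted p of ABCA7 ran from 0.0299 to 0.425. ABCA4, the retinal transporter, had 0.405, 0.785 and 0.928 CPM in TAF2 and 0.479, 0.540 and 0.361 CPM in eGFP libraries, which overlapped (log2 fold change 0.64, 95% interval -0.08 to 1.36, adjusted p = 0.152), and passed without TAF2 replicate 1 at 0.91 (adjusted p = 0.0465, the lowest of its alternatives apart from that test, the highest being 0.512).

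Subfamily C, the multidrug resistance-associated proteins, had 4 higher and 3 lower genes among 8 tested, beside 20.6% higher and 22.4% lower of all tested genes. ABCC1, an exporter of glutathione conjugates, had 222, 222 and 216 CPM in TAF2 libraries, against 198, 194 and 200.3 CPM in eGFP libraries, and rose by 0.16 on the log2 scale (SE 0.025, edgeR adjusted p = 1.53e-06). ABCC4, which exports bile acids and cyclic nucleotides at the blood side, had 32.6, 30.9 and 34.6 CPM in TAF2 libraries, against 27.5, 28.8 and 25.9 CPM in eGFP libraries, a rise of 0.26 (adjusted p = 0.000116). ABCC5, an exporter of cyclic nucleotides and nucleotide analogs, had 47.4, 46.5 and 46.2 CPM in TAF2 libraries, against 39.5, 37.9 and 36.4 CPM in eGFP libraries, the largest rise among called members at 0.30 (SE 0.044, adjusted p = 3.68e-07). In each of these 3 genes all TAF2 libraries lay above all eGFP libraries. ABCC3, a blood-side exporter of glucuronides, had 89.8, 90.7 and 87.2 CPM in TAF2 libraries, against 84.3, 85.9 and 85.5 CPM in eGFP libraries, without overlap but not past the threshold (log2 fold change 0.07, 95% interval 0.00072 to 0.13, adjusted p = 0.0965); with upper-quartile scaling it was (adjusted p = 0.0443, the lowest of its alternatives apart from the test against 1.5-fold, the highest being 0.244).

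ABCC6, needed for ATP release from liver and lost in pseudoxanthoma elasticum, fell, while its neighbour ABCC1, 6.51 kb away, rose. ABCC6 (chr16:16149565-16223494) had 62.0, 61.0 and 58.0 CPM in TAF2 libraries, against 87.4, 84.4 and 86.7 CPM in eGFP libraries. The TAF2 libraries were all lower, and the gene fell by 0.52 on the log2 scale (SE 0.036, edgeR adjusted p = 8.73e-16). The ratio of ABCC6 to ABCC1 counts was 0.274 ± 0.00547 in TAF2 and 0.437 ± 0.00462 in eGFP libraries (SD, n = 3 each; two-sided exact permutation p = 0.1, the smallest possible, adjusted p = 0.15 over 6 ratios). ABCC6 has near-identical partial copies, the pseudogenes ABCC6P1 and ABCC6P2, and its counts were not whole, so the division among the 3 rows is uncertain. ABCC6P1 had 22.0 ± 0.462 CPM in TAF2 and 29.2 ± 1.20 CPM in eGFP libraries and ABCC6P2 4.25 ± 0.546 and 6.03 ± 0.851 (SD, n = 3 each). Both fell as well, by 0.41 and 0.51 on the log2 scale, and the 3 rows summed, chosen after seeing the data, gave -0.49 (SE 0.031, adjusted p = 5.12e-17).

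ABCC11, the transporter whose common variant sets earwax type, had 2.19, 2.00 and 2.64 CPM in TAF2 libraries, against 4.28, 4.54 and 4.33 CPM in eGFP libraries. It fell without overlap, by 0.94 on the log2 scale (SE 0.15, edgeR adjusted p = 1.69e-06). ABCC10, an exporter of lipophilic drugs, had 32.1, 33.0 and 35.7 CPM in TAF2 libraries and 37.0, 35.0 and 38.8 CPM in eGFP libraries. These overlapped, and its fall of 0.14 (adjusted p = 0.0262) was not past the threshold without TAF2 replicate 1 (adjusted p = 0.154), TAF2 replicate 2 (0.0990), eGFP replicate 1 (0.0707) or eGFP replicate 3 (0.166), nor by DESeq2 (0.156), with adjusted p from 0.00983 to 0.166 over its alternatives other than the test against 1.5-fold.

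**Figure D3:**
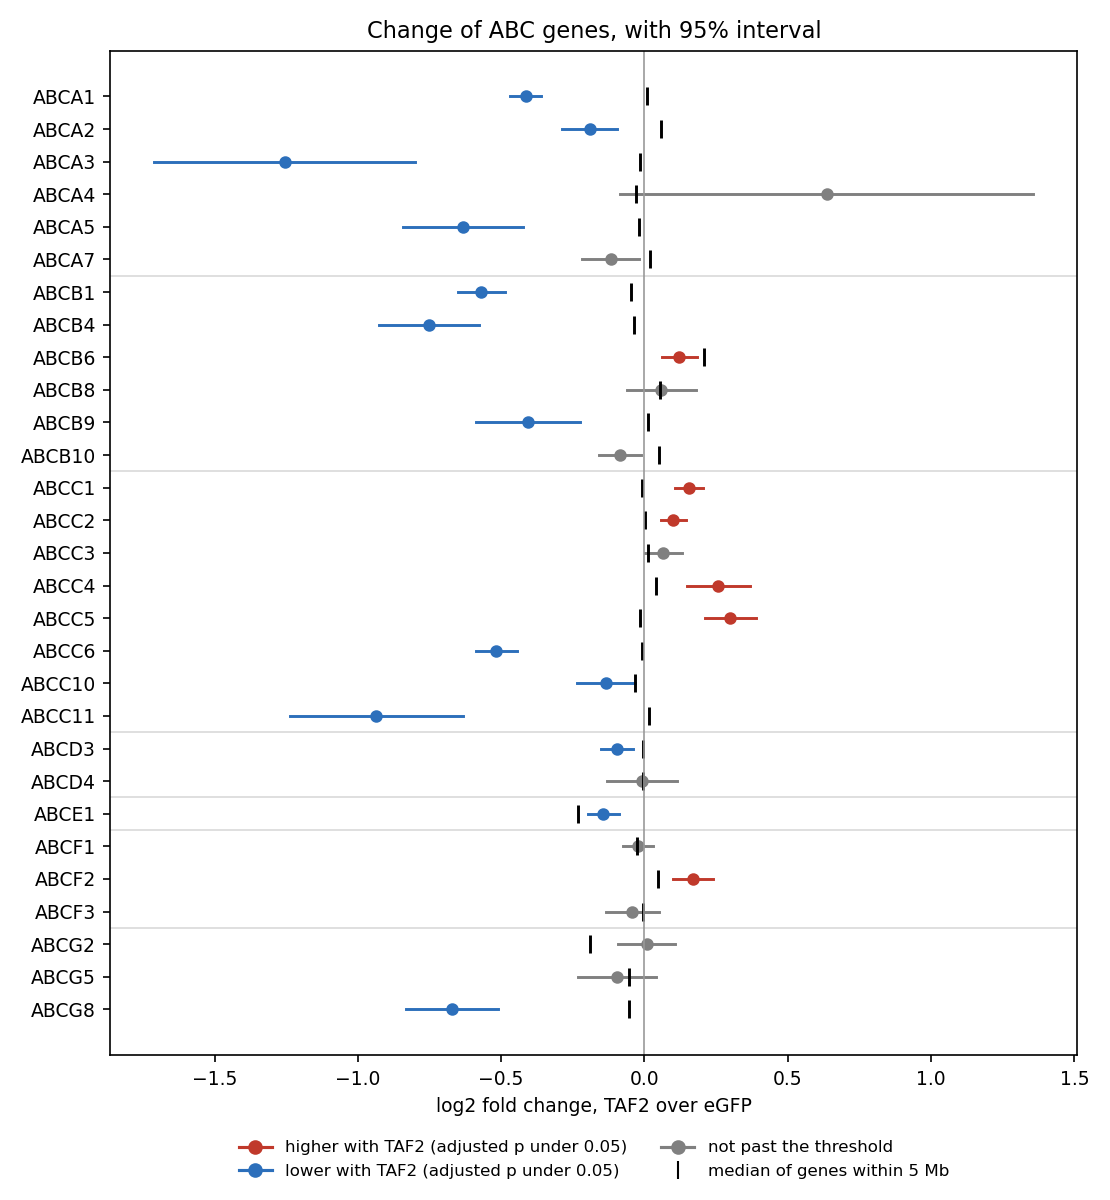
Log2 fold change (TAF2 over eGFP) of 29 tested ABC genes with its 95% interval, and a black tick for the median of the tested genes of at least 5 CPM within 5 Mb of its start. ABCA3 lay furthest to the left at -1.25, and the ticks of ABCE1 at -0.23, ABCG2 at -0.19 and ABCB6 at 0.21 stood apart from 0.

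Among the mitochondrial and lysosomal B genes, ABCB6, a porphyrin transporter, had 117, 119 and 119.8 CPM in TAF2 libraries, against 114, 107 and 106 CPM in eGFP libraries, a rise of 0.12 on the log2 scale without overlap (SE 0.030, edgeR adjusted p = 0.000985). It lies on chromosome 2 among 46 genes within 5 Mb whose median was higher still, at 0.21, and its part in the gene's rise was not tested. ABCB8 averaged 22.1 ± 1.06 CPM in TAF2 and 21.2 ± 0.865 CPM in eGFP libraries (SD, n = 3 each), with an interval of the log2 fold change from -0.06 to 0.18. ABCB10, linked to heme synthesis, averaged 65.9 ± 0.572 CPM in TAF2 and 69.9 ± 2.24 CPM in eGFP libraries (interval -0.16 to -0.01, adjusted p = 0.0578). ABCB9, a lysosomal peptide transporter, fell, with 8.43, 9.03 and 8.99 CPM in TAF2 libraries, against 10.5, 12.5 and 12.2 CPM in eGFP libraries, and a log2 fold change of -0.41 (SE 0.089, adjusted p = 0.000235).

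Of the 3 tested D genes 1 was called (33.3%, against 43.0% of all tested genes). ABCD3, which brings branched-chain acids and bile acid intermediates into peroxisomes, had 144, 134 and 137 CPM in TAF2 libraries, against 148, 148 and 148 CPM in eGFP libraries, and fell by 0.10 on the log2 scale without overlap (edgeR adjusted p = 0.00489). Without TAF2 replicate 2 it was not past the threshold (adjusted p = 0.0761, the highest of its alternatives, the lowest being 0.00106, again apart from the test against 1.5-fold). ABCD4, a lysosomal cobalamin transporter, averaged 20.8 ± 1.20 CPM in TAF2 and 20.9 ± 0.162 CPM in eGFP libraries (SD, n = 3 each; interval of the log2 fold change -0.13 to 0.11).

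At the ribosome, ABCE1, which splits ribosomes after termination, had 163, 158 and 151 CPM in TAF2 libraries, against 173, 174 and 174 CPM in eGFP libraries, and fell by 0.14 on the log2 scale (edgeR adjusted p = 2.73e-05). It lies on chromosome 4 among 16 genes within 5 Mb with a lower median of -0.23, and their part in its fall was not tested. ABCF2 had 86.2, 87.9 and 86.0 CPM in TAF2 libraries, against 76.2, 81.0 and 74.5 CPM in eGFP libraries, and rose by 0.17 (SE 0.035, adjusted p = 9.92e-05). In both genes the groups did not overlap. ABCF1, an initiation factor partner, averaged 192 ± 5.78 CPM in TAF2 and 195 ± 3.38 CPM in eGFP libraries (interval -0.08 to 0.03), and ABCF3 49.0 ± 1.84 and 50.4 ± 3.43 CPM (SD, n = 3 each; interval -0.13 to 0.05).

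The other 15 members were not tested. ABCB11, ABCB5, ABCC8, ABCC9, ABCC12, ABCC13 and ABCD2 had 0 counts in all 6 libraries. ABCC8 and ABCC9 are the sulfonylurea receptors of potassium channels, and ABCD2 is a peroxisomal fatty acid transporter. The remaining 8 had at most 6 counts in any library, as did ABCA6, with 4, 1 and 2 counts in TAF2 and 6, 1 and 2 in eGFP libraries. ABCA8, ABCA9, ABCA10, ABCA12, ABCA13 and ABCG1 had 12, 3, 5, 6, 1 and 1 counts over all 6 libraries. ABCG4, a relative of ABCG1 known from brain, had 0, 1 and 4 counts in TAF2 libraries and none in eGFP libraries, too few to compare. ABCA5 stands in a row with ABCA6, ABCA8, ABCA9 and ABCA10 on chromosome 17, and of these neighbours it was the only one with enough counts to test.

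Members that lie close together did not all move alike. ABCC1 rose and ABCC6 fell. The ratios of ABCG8 to ABCG5, without overlap between the groups, and of ABCB4 to ABCB1, with overlap, are given above. For the following neighbours the difference was not tested. The log2 fold changes side by side were 0.30 for ABCC5 and -0.04 for ABCF3, 168 kb apart on chromosome 3. They were 0.17 for ABCF2 and 0.06 for ABCB8, 164 kb apart on chromosome 7. For 28 of the 31 tested members the median of the genes within 5 Mb (13 to 132 genes) lay between -0.06 and 0.06, ABCB6, ABCE1 and ABCG2 being the exceptions. Among the other ratios formed, ABCA2 over ABCA1 was 0.287 ± 0.0130 in TAF2 and 0.245 ± 0.00916 in eGFP libraries, and ABCC6P1 over ABCC6 was 0.364 ± 0.0135 and 0.339 ± 0.00861, both without overlap (SD, n = 3 each; exact permutation p = 0.1, adjusted p = 0.15). ABCC3 over ABCC2 was 0.162 ± 0.00361 in TAF2 and 0.166 ± 0.00119 in eGFP libraries (exact permutation p = 0.2, adjusted p = 0.24). ABCA2 and ABCA1 are not neighbours, with starts at 137007234 and 104781006 on chromosome 9. Nor are ABCC3 and ABCC2, which lie on chromosomes 17 and 10.

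**Figure D4:**
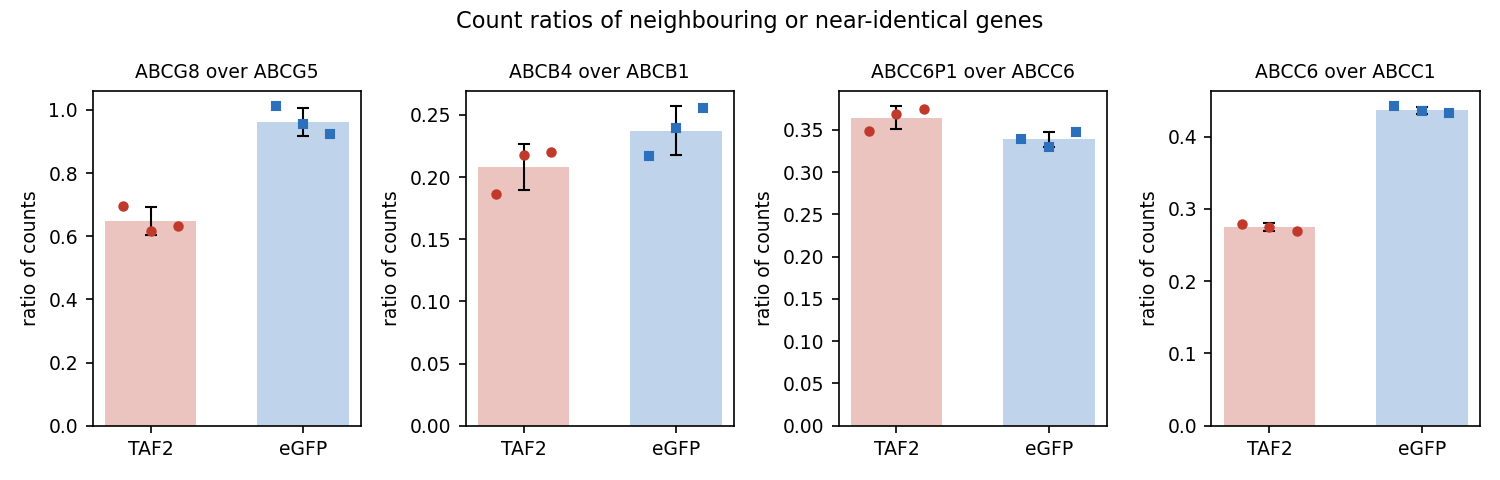
Ratios of counts within each library for 4 pairs of neighbouring or near-identical genes, TAF2 left and eGFP right, with bars for the mean ± SD (n = 3 each) and each axis starting at 0. ABCG8 over ABCG5 was 0.648 ± 0.0431 in TAF2 and 0.962 ± 0.0449 in eGFP libraries, while ABCB4 over ABCB1 overlapped between the groups.

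Genes that work with the ABC transporters were read from lists chosen with earlier results of these data known, and their counts stand beside 22.4% of all tested genes lower and 20.6% higher. Of 16 tested regulators of ABC genes, 8 fell and 0 rose, with a median log2 fold change of -0.11. NR5A2, a receptor that drives bile acid and sterol genes, had 3.95 ± 0.353 CPM in TAF2 and 19.8 ± 1.04 CPM in eGFP libraries (SD, n = 3 each; log2 fold change -2.33). PPARA, the fatty acid receptor, had -0.47, HNF4A -0.18 and NR1H3, which encodes LXR-alpha, -0.38. NR1H3 lies on chromosome 11, where genes within 5 Mb had a median of -0.26. The bile acid receptor NR1H4 (0.06, adjusted p = 0.235), the drug receptor NR1I2 (-0.04, adjusted p = 0.700) and NFE2L2, which encodes NRF2 (0.04, adjusted p = 0.201), were not past the threshold by edgeR.

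Other transport proteins of bile acids, organic ions, copper and phospholipid in liver fell in 10 of 12 tested genes and rose in 0 (all tested genes: 22.4% and 20.6%), with a median of -0.49. The organic anion carriers SLCO4C1 (3.41 ± 0.387 CPM in TAF2 and 14.1 ± 1.03 CPM in eGFP libraries) and SLCO2B1 (12.3 ± 0.779 and 23.8 ± 1.85 CPM) fell, as did SLC51A, a subunit of the basolateral bile acid exporter (7.50 ± 0.526 and 15.1 ± 0.831 CPM), and SLC22A7 (1.41 ± 0.418 and 5.12 ± 0.296 CPM; SD, n = 3 each). SLC51B, the partner subunit of SLC51A, had a log2 fold change of 0.14 (edgeR adjusted p = 0.147). SLC10A1 and SLCO1B1, main bile acid uptake carriers of hepatocytes, had no count in any library.

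Beside the same shares of all genes, 22.4% lower and 20.6% higher, sterol efflux partners fell in 6 of 11 tested genes and rose in 1. APOA1, the acceptor of ABCA1 cholesterol, had a log2 fold change of -0.82 and lies on chromosome 11 among genes with a median of -0.25, the sterol esterifying SOAT2 had -0.53, APOE -0.18 and LCAT, which esterifies cholesterol in plasma, -0.53. Peroxisomal partners of the ABCD proteins fell in 9 of 17 and rose in 1, among them the oxidation enzymes HSD17B4 (-0.34) and EHHADH (-0.25), PHYH (-0.40, among genes with a median of 0.12) and the acyl-CoA synthetase SLC27A2 (-0.34). Of 20 iron-sulfur cluster and heme genes 2 were higher and 4 lower. FECH, which inserts iron into heme, rose by 0.34, among genes on chromosome 18 with a median of 0.15, and the carrier SLC25A39 by 0.15, while CIAO1 (-0.16) and GFER (-0.16) fell. Translation partners of ABCE1 and ABCF1 rose in 7 of 11 and fell in 0, by small amounts, as in EIF2AK4 (0.29), EIF2S3 (0.15), GCN1 (0.09) and EIF2S2 (0.08). Of the ABC genes with other symbols, the peptide transporter subunit TAP2 rose by 0.10 (edgeR adjusted p = 0.0254), TAP1 had -0.07 (adjusted p = 0.244) and CFTR had no count. KCNJ11, a channel partner of ABCC8, had a log2 fold change of -0.43 at 1.19 CPM in TAF2 and 1.57 CPM in eGFP libraries (adjusted p = 0.141) and lies among genes with a median of -0.28, and KCNJ8 had no count. SLCO2B1 also lies on chromosome 11, among genes with a median of -0.28. The part of these neighbourhoods was not tested.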

How the data were processed

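Expected counts for each gene, not normalized, came from 1 deposited table that covers 3 TAF2 and 3 eGFP libraries. Per the submitters' processing notes RSEM and hg38 were used. Aligner, versions, annotation release and strand setting: not given in the sources used here. RSEM divides reads that fit several genes, and 3 tested ABC genes had counts that were not whole. Columns were matched to samples by name, and 0 were left unused. Counts were rounded, filtered by filterByExpr, scaled by TMM and tested with edgeR 4.0.16 (R 4.3.3; glmQLFit, robust, glmQLFTest, group alone), with Benjamini-Hochberg adjustment over 12902 genes and a threshold of 0.05. SE is the absolute log2 fold change over the root of F, and intervals are 95%. CPM use the scaled library sizes. The biological coefficient of variation was 2.75%, so small differences can pass. Counting gives a floor of 3 counts per library. The steps were tested on simulated counts with the same dispersion for all genes. There the share of changed genes was far smaller than the share called here, so this checked the code and not these calls. No pair of libraries looked like a repeat deposit, since a chi-square test within groups gave 1.98 to 5.91 per degree of freedom. Alternatives were upper-quartile scaling, total counts, DESeq2 1.42.0, other filters, a replicate block, a test against 1.5-fold and leaving out each library. Ratios had 0.5 added to both counts. Genes were placed by transcript accession on RefSeq GRCh38.p14 (46 of 46 members). Library values are given for hepatic members and for called members changed by at least 0.25, and in part for others, and some members are counted but their values are not reported here; lists name up to 4 called genes with the smallest p. The members and lists were chosen with earlier results of these data known.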

Additional observations from a re-analysis of the deposited data

How the results depend on the processing

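Of the 19 called ABC genes, 17 were past the threshold in the same direction under every alternative run for them except the test against 1.5-fold (ABCB4 has no value of its own with near-identical rows summed), which called 1 member and 373 genes in all; the exceptions were ABCC10 and ABCD3. The number of members called was 17 to 20 with each library left out, 18 by DESeq2, 20 with upper-quartile scaling, and 21 with scaling on genes from unshifted neighbourhoods, an alternative added with the data in view. Over all genes, 4800 to 5288 of 13014 to 13064 were called with a library left out, and 4079 of 14069 by DESeq2. Upper-quartile scaling called 5676 and scaling on unshifted neighbourhoods 5479 of 12902, against 5548 in the main test. The members' median log2 fold change of -0.08 was -0.070 with upper-quartile scaling, -0.074 with no filter on low counts, -0.063 with near-identical rows summed (also added later), -0.098 with scaling on genes from unshifted neighbourhoods, and -0.090 to -0.057 with each library left out. Same-numbered libraries did not deviate together (correlations of -0.08, -0.10 and -0.10). With the replicate block 19 members were called, 6 higher and 13 lower, beside 5250 of all 12902 tested genes. Signs turned only among uncalled members near 0. ABCD4 had 0.0038 with upper-quartile scaling, 0.00047 with no filter and -0.050 to 0.032 with a library left out, and ABCG2 had -0.0056 with scaling on unshifted neighbourhoods and -0.019 to 0.062 with a library left out. Under the same omission ABCF1 ran from -0.036 to 0.0030 and ABCF3 from -0.090 to 0.016. The causes were not tested. ABCB10 was called with scaling on unshifted neighbourhoods (adjusted p = 0.0273, the lowest of its alternatives apart from the test against 1.5-fold, the highest being 0.280). At this depth the 15 untested members had too few counts to test, and absent and very low expression cannot be told apart in them. The interval of ABCA4 is wide.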
